A study of Rattus norvegicus with 14 samples.

Results

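The genes described here encode the subunits of oxidative phosphorylation that are read from nuclear DNA, in dorsal root ganglia of rats with a muscle graft on a skin nerve. They were chosen by name: every row of the gene tables whose symbol begins with Nduf, Uqcr, Cox4 to Cox8 or Atp5, except rows with "-ps" in the symbol. This gave 90 of the 30562 genes in the tables, carrying 87 symbols, since Atp5mc1, Cox6b1 and Ndufb2 each stood on a pair of Ensembl identifiers. By role they comprised 46 complex I genes (7 core subunits, 32 accessory subunits and 7 assembly factors), 8 genes of complex III, 18 of complex IV and 18 of ATP synthase. The symbols Cox6b2, Cox8a and Cox8b were not analysed here.

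All 7 rats were male and wild type, and in each the extensor digitorum longus, a leg muscle, had been grafted onto the saphenous nerve of one hindlimb while the other hindlimb was left unoperated. RNA came from ganglia L2 to L5 of each side, so that every rat gave a surgical and a control library. The 4 groups were surgical at 8 weeks and control at 8 weeks (rats D, C, G and H, n = 4 each), and surgical at 6 weeks and control at 6 weeks (rats A, B and E, n = 3 each). The control side was thus the opposite limb of an operated animal, and the times were sampled in different rats; the age of the rats, any sham operation and the number of ganglia pooled were not given in the sources used here.

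Oxidative phosphorylation takes place in the inner mitochondrial membrane. Complex I (NADH dehydrogenase), complex III (ubiquinol-cytochrome c reductase) and complex IV (cytochrome c oxidase) pass electrons to oxygen and pump protons, and ATP synthase uses the proton gradient to make ATP. Sensory neurons maintain long axons and depend heavily on this supply. Each complex except complex II mixes nuclear-encoded with mitochondrially encoded subunits, and the promoters of the nuclear genes often hold sites for the transcription factors NRF1, the ETS family (GABP) and YY1.

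Promoters are printed for the 5 genes that passed the test in the comparison of times described below, together with that of Cox6a2, the heart and skeletal muscle form of a complex IV subunit, because of its levels in single libraries. RefSeq promoter windows (build GRCr8, 250 bases before to 50 bases after the start of the gene) were found by symbol for 78 of the 90 rows, which shared 75 windows. Each is written 5′ to 3′ on the strand of the gene. Capitals mark matches, on either strand, to GCATGCGC (NRF1), CCGGAAG (ETS) or AAGATGGC (YY1). In Cox6a2 only, capitals also mark the E-box CAGCTG, a site class of muscle transcription factors. The same E-box letters stand unmarked in the Cox7b and Atp5f1e windows. The windows are Ndufa6 at chr7:115750268-115750567 (minus strand), Cox7b at chrX:75148786-75149085 (plus strand), Atp5mg at chr8:54130358-54130657, Atp5f1e at chr3:183680123-183680422, Atp5mk at chr1:255921998-255922297 and Cox6a2 at chr1:192219667-192219966 (all minus strand).
Ndufa6: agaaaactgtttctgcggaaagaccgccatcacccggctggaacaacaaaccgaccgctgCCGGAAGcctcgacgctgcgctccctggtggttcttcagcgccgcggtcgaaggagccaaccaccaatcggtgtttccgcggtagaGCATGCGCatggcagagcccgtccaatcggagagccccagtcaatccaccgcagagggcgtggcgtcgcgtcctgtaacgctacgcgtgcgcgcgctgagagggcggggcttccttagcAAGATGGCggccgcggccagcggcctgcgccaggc
Cox7b: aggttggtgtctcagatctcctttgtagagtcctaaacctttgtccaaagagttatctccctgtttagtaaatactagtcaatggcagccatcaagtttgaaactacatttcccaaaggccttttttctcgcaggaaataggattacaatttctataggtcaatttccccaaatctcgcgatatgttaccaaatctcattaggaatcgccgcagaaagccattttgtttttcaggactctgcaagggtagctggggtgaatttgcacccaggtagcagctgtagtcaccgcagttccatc
Atp5mg: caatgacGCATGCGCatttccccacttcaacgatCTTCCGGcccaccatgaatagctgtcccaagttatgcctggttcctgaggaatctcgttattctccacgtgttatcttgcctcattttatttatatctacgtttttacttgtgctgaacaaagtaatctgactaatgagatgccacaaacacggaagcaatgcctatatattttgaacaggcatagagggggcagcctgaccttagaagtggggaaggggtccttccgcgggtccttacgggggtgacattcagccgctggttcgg
Atp5f1e: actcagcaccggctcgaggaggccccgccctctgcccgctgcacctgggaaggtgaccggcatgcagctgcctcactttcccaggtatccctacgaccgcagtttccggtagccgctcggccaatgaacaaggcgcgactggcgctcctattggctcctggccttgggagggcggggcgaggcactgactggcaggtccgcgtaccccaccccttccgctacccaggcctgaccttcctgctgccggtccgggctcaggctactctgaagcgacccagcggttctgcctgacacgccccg
Atp5mk: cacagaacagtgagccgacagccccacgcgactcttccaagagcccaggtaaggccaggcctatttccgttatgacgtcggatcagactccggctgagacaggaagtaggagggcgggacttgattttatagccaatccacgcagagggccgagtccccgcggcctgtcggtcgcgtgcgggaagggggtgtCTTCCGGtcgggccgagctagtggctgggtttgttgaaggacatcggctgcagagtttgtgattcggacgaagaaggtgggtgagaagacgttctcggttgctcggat
Cox6a2: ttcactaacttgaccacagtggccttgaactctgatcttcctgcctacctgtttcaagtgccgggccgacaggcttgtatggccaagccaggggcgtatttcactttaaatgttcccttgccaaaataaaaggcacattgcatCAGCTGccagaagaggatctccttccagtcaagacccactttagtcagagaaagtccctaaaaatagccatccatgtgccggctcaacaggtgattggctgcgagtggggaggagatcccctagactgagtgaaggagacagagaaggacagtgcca

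The Ndufa6 window held all 3 motifs, with the NRF1 letters starting 104 bases and the ETS letters 190 bases before the start of the gene. Atp5mg held the NRF1 letters at 243 and the ETS letters at 216 bases before the start, and Atp5mk the ETS letters at 58 bases before it. Cox7b and Atp5f1e held none of the 3. Among the 75 windows, 13.3% held the NRF1 letters, 25.3% the ETS letters and 18.7% the YY1 letters. Among all 33469 promoters of the same length the shares were 2.47%, 8.75% and 3.17%, and among the promoters of tested genes 4.29%, 14.3% and 4.51%. Any of the 3 was found in 45.3% of these windows, in 13.3% of all promoters and in 21.1% of the promoters of tested genes. Their median GC content was 56%, against 51.7% for all promoters. The E-box stood in 16% of them and 15.1% of all promoters, and in Cox6a2 it began 107 bases before the start.

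Libraries held 21590793 to 28237574 estimated counts at 8 weeks and 18489118 to 21029173 at 6 weeks. Neuron markers (15 genes, none at 0 in any library) summed to 10520 to 29331 TPM in the surgical and 14287 to 27497 TPM in the control libraries at 8 weeks. At 6 weeks they summed to 1971 to 17708 TPM in the surgical and 3014 to 18898 TPM in the control libraries, so neuronal RNA was present throughout, and the lowest sums were those of both libraries of rat A and the control library of rat B at 6 weeks. Skeletal muscle markers (14 of 16 measured, none at 0) were highest in rat C's surgical library (36786 TPM), rat H's control library (7169 TPM) and rat E's surgical library (1532 TPM). The other libraries had 18.3 to 160 TPM. Markers of spinal cord and central glia (9 genes, of which Gad2, Opalin and Olig2 were at 0 in some libraries) summed to 824 TPM in rat B's surgical library and to 1.53 to 16.1 TPM elsewhere. In these bulk samples, fewer cells of a type and less RNA per cell cannot be told apart.

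The genes spanned a wide range of levels. TPM, which is scaled per transcript length and allows genes to be compared, had a median of 163.8 over the 90 gene means. All together the genes took 1.16% to 1.23% of the counts in the surgical libraries and 1.19% to 1.30% in the control libraries at 8 weeks. At 6 weeks their share was 0.781%, 1.08% and 1.13% in the surgical libraries of rats A, B and E, against 1.09%, 1.09% and 1.43% in the control libraries of the same rats. The share was lower on the surgical side in each of the 3 rats. It was also lower on that side in each rat at 8 weeks. The 8-week surgical libraries of rats D, C, G and H had 1.16%, 1.18%, 1.23% and 1.18%. Their control libraries had 1.24%, 1.26%, 1.30% and 1.19%. By complex, ATP synthase supplied 38.2% of these counts, complex I 31.5%, complex IV 22.2% and complex III 8.1%.

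Within each complex the leading genes by mean TPM over the 14 libraries were small subunits. Atp5f1e, the epsilon subunit of the F1 head of ATP synthase, led with 9315 TPM, and Cox6c, a small nuclear subunit of complex IV, had 1295 TPM. Uqcrq, a small subunit of complex III, had 728 TPM, and Ndufs5, an accessory subunit of complex I, had 483 TPM. The catalytic parts were lower or in between: Atp5f1b, the beta subunit that carries the catalytic site of ATP synthase, had 890 TPM and its alpha partner Atp5f1a 310 TPM. Of the core of complex I, Ndufv1, which binds NADH, had 141 TPM and Ndufs1, an iron-sulphur protein, 64.7 TPM.

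The leading value of Atp5f1e rested on few reads. Its 9315 TPM came from a mean of 1136 counts per library, whereas Atp5f1b had 890 TPM from 28367 counts. The count divided by TPM gives a relative transcript length, and for Atp5f1e it was 0.00239 of that of the median gene. Atp5me, a membrane subunit of ATP synthase, had a mean of 1329 TPM from 270.5 counts, with a ratio of 0.00414. Between libraries this ratio moved by a factor of only 1.01 for both, so their TPM relative to other genes depends on the very short length that the quantification assigned. Without these 2 genes the summed TPM of the other 88 averaged 24185 ± 1738 in surgical and 26819 ± 2395 in control libraries at 8 weeks (SD, n = 4 each). At 6 weeks it averaged 18722 ± 5003 in surgical and 23508 ± 6152 in control libraries (SD, n = 3 each).

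At 8 weeks the surgical and control ganglia did not differ detectably in these genes. Of the 86 genes tested, 45 were lower and 41 higher on the surgical side, with a median log2 difference of -0.0067 (all 17035 genes tested: 0.0057). None passed at an adjusted p of 0.05 by edgeR's quasi-likelihood test, where the background was 0% of all genes, none by DESeq2 or limma, and none had an unadjusted p under 0.05. On log2(TPM + 1) the median was -0.14 with 76 of 86 lower, where that of all genes was -0.094 with 11810 of 17519 lower. With a trend with transcript length removed, as described below, it was -0.038 with 57 of 86 lower. Cox4i1, the widespread form of the largest nuclear subunit of complex IV, had 1147, 1072, 1179 and 1313 TPM in the surgical libraries of rats D, C, G and H, against 1378, 1409, 1439 and 1163 TPM in their control libraries. The Cox4i1 values overlapped between sides, with a fitted log2 difference of -0.02. The largest positive differences were those of Cox6a2 (0.82) and Ndufa4l2 (0.81), both carried by rat C, and the most negative was that of Ndufs5 (-0.25, SE 0.17).

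At 6 weeks the genes were lower on the surgical side as a body, although no single gene passed the test over all genes. Of 86 tested, 77 were lower and 9 higher, with a median log2 difference of -0.32 (all genes: -0.0080). On log2(TPM + 1) the median was -0.10 with 61 of 86 lower, where that of all genes was 0.16 with 4584 of 17519 lower. With a trend with transcript length removed, as described below, it was -0.039 with 52 of 86 lower. In that fit 7 were under an unadjusted p of 0.05, all lower, beside a background of 0.769% of all genes. In the fit on TMM-scaled counts, unadjusted p was under 0.05 for 25 genes, all lower, which is 29.1% of the 86 beside a background of 2.11% of all genes. Adjusted over all genes, 0 passed by edgeR's quasi-likelihood test (background 0%, smallest adjusted p 0.999) and by limma on log2 TPM. DESeq2 called 12 of the 86, all lower. The share of all genes that DESeq2 called is not given here, so these 12 have no background. On log2 CPM, the surgical library was below the control library in all 3 rats for 55 genes (64.0%; background 13.1%). For 41 genes every surgical library, on the same scale, lay below every control library (47.7%; background 4.67%).

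By role, the medians at 6 weeks were negative in every complex on TMM-scaled counts. All 12 genes of the membrane part and stalk of ATP synthase were lower (median -0.40), as were all 8 of complex III (-0.42) and 14 of 16 of complex IV (-0.41). Of complex I, 28 of 30 accessory subunits were lower (-0.33), while the core (5 of 7, -0.23) and the assembly factors (4 of 7, -0.20), which build the complex and are not part of it, were split. On log2(TPM + 1) the medians of the F1 head (0.09) and of the assembly factors (0.03) were positive and the others stayed negative, each below the 0.16 of all genes. On counts the 5 genes of the F1 head, all negative, ranged from -0.0028 for Atp5f1a to -0.91 for Atp5f1e. Among catalytic and core subunits, Atp5f1b was at -0.02 (SE 0.32), and Ndufs1 was at 0.19 (SE 0.33). The roles also differed in relative transcript length, described below. Its median percentile was 26.2 for the complex I core, 15.9 for the F1 head and 12.4 for the assembly factors. It was 10.3 for complex III, 5.81 for complex IV, 5.02 for the accessory subunits and 4.97 for the membrane part and stalk. The part of length in the role medians was not tested by role.

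**Figure D1:**
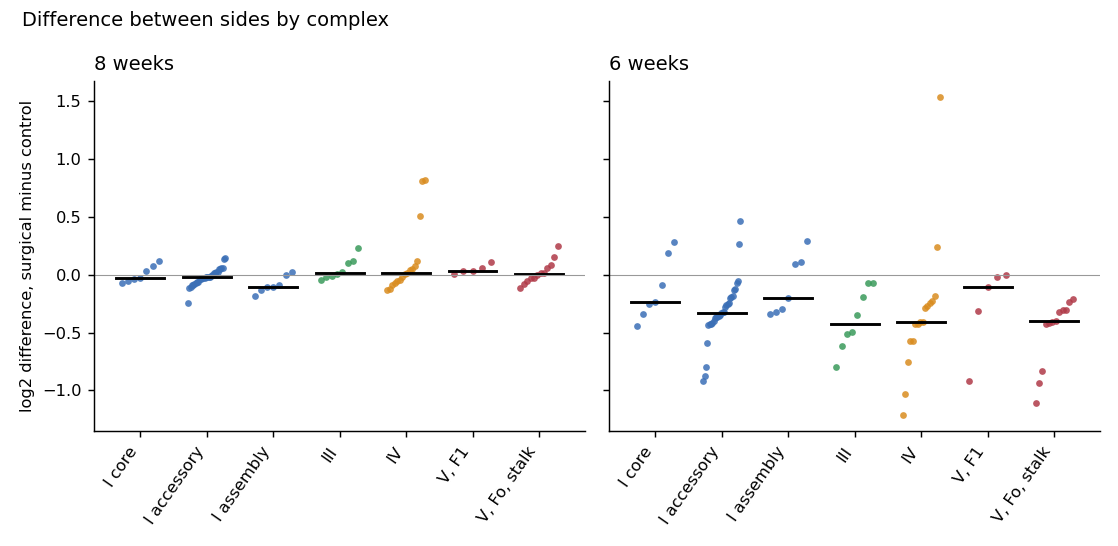
Log2 difference of each tested gene except Atp5if1, surgical minus control (edgeR fit), grouped by complex at 8 weeks and at 6 weeks. V is ATP synthase, points are genes and black bars are medians. At 8 weeks most points sit at 0, whereas at 6 weeks the medians of complexes III and IV and of the membrane part of ATP synthase are near -0.4; the highest point is Cox6a2.

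Cox7b, a small subunit of complex IV, had the smallest p at 6 weeks. It had 651, 735 and 860 TPM in the surgical libraries of rats A, B and E, against 1376, 1428 and 1657 TPM in their control libraries, so the sides did not overlap. The log2 difference was -1.22 (SE 0.19, unadjusted p 0.00029, adjusted p 0.999 by edgeR over all genes), a level 2.32-fold lower on the surgical side. DESeq2 gave -1.20 with an adjusted p of 7e-07.

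Ndufa4, which copurified with complex I but is held to be a subunit of complex IV, was the only one of the 86 genes that was lower on the surgical side in all 7 rats on log2 CPM (1.16%; background 0.746%). On TPM this held in 6 rats, since rat H had 483 TPM in the surgical and 442 TPM in the control library. At 6 weeks it had 229, 370 and 478 TPM in the surgical libraries of rats A, B and E, against 594, 474 and 776 TPM in their control libraries. On TPM the groups overlapped by 1 library, unlike on log2 CPM, since the surgical library of rat E (478 TPM) stood just above the control library of rat B (474 TPM). The log2 difference was -1.03 (SE 0.19, adjusted p 0.999). At 8 weeks the difference was -0.12 (SE 0.16), and the 4 rats differed by -0.04, -0.31, -0.11 and -0.02 (log2 CPM).

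Next by p were Cox6c (-0.76, SE 0.15), Atp5mg, the g subunit of the ATP synthase membrane part (-0.93, SE 0.19), and Atp5mf, its f subunit (-0.84, SE 0.18). Cox6c had 806, 1106 and 1159 TPM in the surgical libraries, against 1280, 1266 and 1933 TPM in the control libraries of the same rats, with no overlap. Atp5mg had 98.4, 123 and 143 TPM in the surgical libraries, against 170, 196 and 222 TPM in the control libraries, again without overlap. Atp5if1, the inhibitor that blocks the reverse reaction of ATP synthase, was at -0.44 (SE 0.17, unadjusted p 0.033), and Cox7a2l, which helps to join complexes III and IV, at -0.43 (SE 0.18, unadjusted p 0.043).

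By rat, the median difference of the 86 genes, surgical minus control, was -0.06, 0.14, -0.08 and 0.0021 in rats D, C, G and H, and -0.40, -0.22 and -0.35 in rats A, B and E. In rats A and E 82 and 81 of the genes were lower on the surgical side, and in rat B 59. Neuron markers differed between the sides by -1.86, 1.26 and -0.02 (mean log2 CPM) in rats A, B and E, and 14 of the 15 had a negative fitted difference at 6 weeks. With the neuron marker level as a covariate the median of the genes was -0.32. Without rats C, E and H, whose libraries held muscle RNA, it was -0.30.

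**Figure D2:**
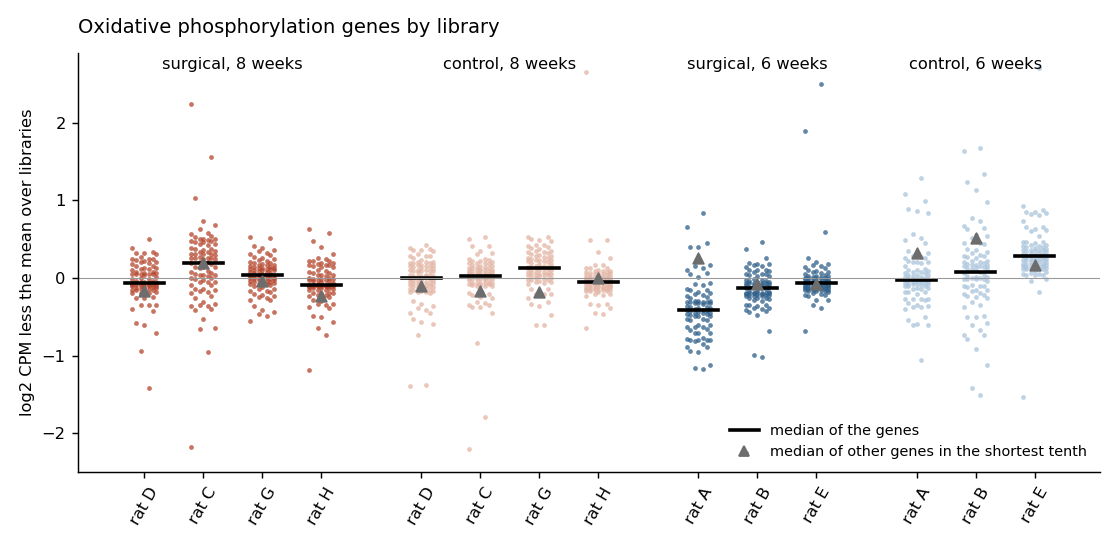
Log2 CPM of each of the 86 tested genes less its own mean over the 14 libraries, by library and group; points are genes (10 lie outside the axis), bars are their medians and triangles are the medians of the other genes in the shortest 10% by transcript length. The surgical library of rat A has the lowest median (-0.41) and the control library of rat E the highest (0.28).

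Over both times the difference was smaller. Of 86 genes, 76 were lower on the surgical side, with a median of -0.13 (all genes: 0.0004), and 5 had an unadjusted p under 0.05, all lower (background 1.46%). These were Ndufs5 (-0.48), Ndufa4 (-0.51), Cox7b (-0.56), Atp5mf (-0.40) and Cox7a2, the widespread form of a complex IV subunit (-0.28). None passed over all genes by edgeR, DESeq2 or limma (background 0%).

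The side difference at 8 weeks minus that at 6 weeks was positive for 76 of 86 genes, with a median of 0.33 (all genes: 0.046); on log2(TPM + 1) the median was -0.012, where that of all genes was -0.24. An unadjusted p under 0.05 was reached by 11 genes, all positive, led by Cox7b (1.14, SE 0.25, unadjusted p 0.0022, adjusted p 1 by edgeR). These 11 made up 12.8% of the 86, beside a background of 0.839% of all genes in the positive direction. None passed by edgeR (background 0%) or limma. DESeq2 called Cox7b and Cox6c, and its share of all genes called is not given here. A difference between the times in the response to the graft was thus not shown for any single gene by edgeR.

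On the control side 5 of these genes fell at 8 weeks relative to 6 weeks, and they were high in the 6-week control libraries relative to the other 3 groups. Of 84 genes tested, 5 passed at an adjusted p of 0.05 by edgeR's quasi-likelihood test, all lower at 8 weeks (5.95%; background lower 0.135%, 22 of 16346 genes). They formed 22.7% of the genes called lower. These comparisons share the 3 control libraries of 6 weeks with the comparison of sides at 6 weeks, so both sets of values move with the same libraries. The fitted differences are on TMM-scaled counts; on log2(TPM + 1) the median of all genes was higher at 8 weeks by 0.45, so the TPM given below differ by less.

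Ndufa6, an accessory subunit of complex I, had 353, 395, 390 and 363 TPM in the 8-week control libraries of rats D, C, G and H, against 536, 572 and 731 TPM in the 6-week control libraries of rats A, B and E. The times did not overlap. The log2 difference was -1.33 (SE 0.13, adjusted p 0.0344), which is 2.51-fold lower at 8 weeks.

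Cox7b had 763, 917, 934 and 716 TPM in the 8-week control libraries, against 1376, 1428 and 1657 TPM in those of 6 weeks. The lowest 6-week library was above every 8-week library. Its log2 difference was -1.47 (SE 0.17, adjusted p 0.0344), or 2.77-fold lower at 8 weeks.

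Atp5mg had 115, 125, 134 and 114 TPM in the 8-week control libraries, against 170, 196 and 222 TPM in those of 6 weeks. With no overlap, the log2 difference was -1.37 (SE 0.16, adjusted p 0.0344). Atp5f1e had 6811, 5983, 7679 and 7165 TPM at 8 weeks, against 12757, 17492 and 15885 TPM at 6 weeks, also without overlap. Its log2 difference was -1.80 (SE 0.22, adjusted p 0.0354), 3.49-fold lower at 8 weeks.

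Atp5mk, another small membrane subunit of ATP synthase, had 986, 1439, 1123 and 1243 TPM in the 8-week control libraries, against 2503, 2862 and 2497 TPM in those of 6 weeks. The groups were far apart, with a log2 difference of -1.79 (SE 0.23, adjusted p 0.0484). On the surgical side Atp5mk averaged 1037 ± 297 TPM at 8 weeks (SD, n = 4) and 1427 ± 293 TPM at 6 weeks (SD, n = 3).

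**Figure D3:**
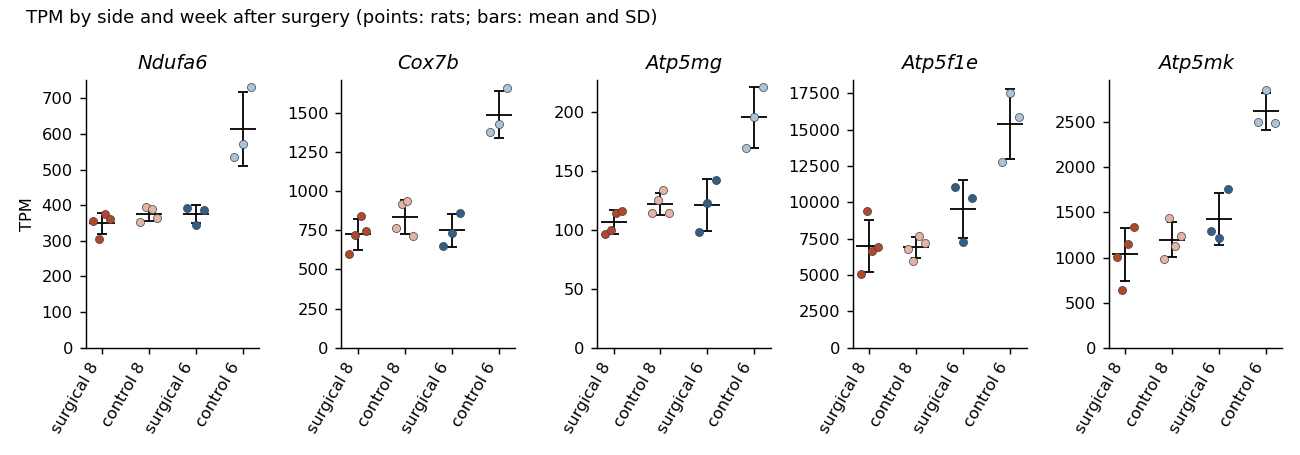
TPM of the 5 genes called on the control side, by group; points are rats, and bars are the mean and SD (n = 4 at 8 weeks, n = 3 at 6 weeks). For each gene the 3 control libraries of 6 weeks lie above all libraries of the other groups.

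Over all 84 genes tested on the control side the directions were mixed. The median was -0.08, close to the -0.06 of all genes; on log2(TPM + 1) both were positive, at 0.51 and 0.45. An unadjusted p under 0.05 was reached by 24 genes in the lower direction (28.6%; background 17.4%) and by 8 in the higher direction (9.52%; background 13.9%). On log2 CPM, all 8-week control libraries lay below all 6-week control libraries for 24 genes (27.9% of 86; background 12.6%), and above them for Atp5f1a, Ndufs1 and Ndufaf1 (3.49%; background 11.8%). On TMM-scaled counts roles differed in direction: the median was 0.32 for the F1 head, where 4 of 5 were higher, and 0.13 for the core of complex I, where 6 of 7 were higher. It was -0.27 for the membrane part and stalk of ATP synthase, where 9 of 12 were lower, and -0.09 for the accessory subunits of complex I, where 22 of 29 were lower. On log2(TPM + 1) these medians were all positive, at 0.97 for the F1 head, 0.73 for the core, 0.35 for the membrane part and stalk (8 of 12 higher) and 0.50 for the accessory subunits (27 of 30 higher), beside the 0.45 of all genes. The 2 roles with positive medians on counts were the longer ones, at median percentiles of relative transcript length of 15.9 (F1 head) and 26.2 (core). The membrane part and stalk was at 4.97 and the accessory subunits at 5.02. The part of length in the role medians was not tested by role. Ndufs1 had 81.1, 93.9, 91.8 and 72.3 TPM at 8 weeks, against 28.4, 20.4 and 56.4 TPM at 6 weeks. Its log2 difference was 0.78 (SE 0.22, adjusted p 0.107 by edgeR).

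The calls on the control side were fragile. Leaving out rat D, C, G, H, A or B left 0 of the 84 genes called in each case, and leaving out rat E gave 26 of 85. DESeq2 called 21, the 5 among them, and limma on log2 TPM called none. The shares of all genes called by DESeq2 and without rat E are not given here, so these counts have no background. The times also differed in depth, in rats and in neuron markers, which on the control side averaged 9.60 ± 0.31 mean log2 CPM at 8 weeks (SD, n = 4) and 8.50 ± 0.99 at 6 weeks (SD, n = 3). Of the other marker lists on the control side, all 5 myelinating Schwann cell markers (median -1.05) were lower at 8 weeks. So were all 5 macrophage (-0.99), all 5 fibroblast (-1.01) and all 5 endothelial markers (-0.39). The tested red blood cell (all 4, -1.51) and spinal cord and central glia markers (all 5, -0.98) were also lower. All 14 skeletal muscle markers tested (4.43, with rat H's control library at 7169 TPM) and 4 of 5 adipocyte markers tested (1.81) were higher. Satellite glia markers were split, with 3 of 5 lower (-0.10). In these lists 0 were called, and their part in the calls was not tested. Time and any difference in how the samples of each time were handled cannot be told apart. With the neuron marker level as a covariate the same 5 genes were called, with Ndufa6 at -1.17 and Atp5f1e at -1.36, and the median of the genes was -0.20.

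On the surgical side 72 of 85 genes were higher at 8 weeks than at 6 weeks, with a median of 0.23 (all genes: 0.0056). On log2(TPM + 1) the median was 0.47, where that of all genes was 0.21. Only 5 had an unadjusted p under 0.05 by edgeR in that direction (5.88%, background 1.68%), among them Atp5mc1 (ENSRNOG00000007235), Cox7a1, Atp5f1d and Uqcrc1. In the lower direction there were 3, Atp5mk, Atp5me and Atp5mg (3.53%, below the background of 4.88%). None passed over all genes by edgeR, DESeq2 or limma (background 0%). Uqcrc1, a core protein of complex III, had 211, 210, 220 and 232 TPM in the 8-week surgical libraries, against 60.5, 159 and 155 TPM in those of 6 weeks. The groups did not overlap, with a log2 difference of 0.62 (SE 0.26).

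These genes are short, and in the comparison of sides at 6 weeks and on the control side over time the differences followed transcript length across all genes. A relative length could be formed for 85 of them and for 15910 genes in all. Of the 85, 49 lay in the shortest 10% of genes and 81 below the median length, with a median length ratio of 0.277 of that of the median gene. Cox6b1 (ENSRNOG00000066942) was the longest, at percentile 96.9, and Uqcrc2 and Ndufs1 followed at 57.7 and 55.9. Of the 5 genes called on the control side, 4 were in the shortest 10%, and Atp5mg was at percentile 39.4. Of all 22 genes called lower there, 17 were in the shortest 10%.

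In the comparison of sides at 6 weeks, the log2 difference was higher for longer genes across the 15910 genes (Spearman's rho 0.40) and across the 85 genes (0.47). These are descriptions, since genes of a library share its depth and composition. At 8 weeks the values were -0.02 and -0.09, and on the control side over time 0.22 and 0.54. On the surgical side over time they were -0.0037 and 0.31. In the shortest 10% at 6 weeks the 49 genes had a median of -0.40 and the 1541 other genes -0.29. An unadjusted p under 0.05 in the lower direction was reached by 38.8% of the 49 and 10.2% of the others. On the control side over time, the 48 tested genes of that length class had a median of -0.18 and the 1487 others -0.51, with 39.6% and 35.3% under an unadjusted p of 0.05 in the lower direction.

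**Figure D4:**
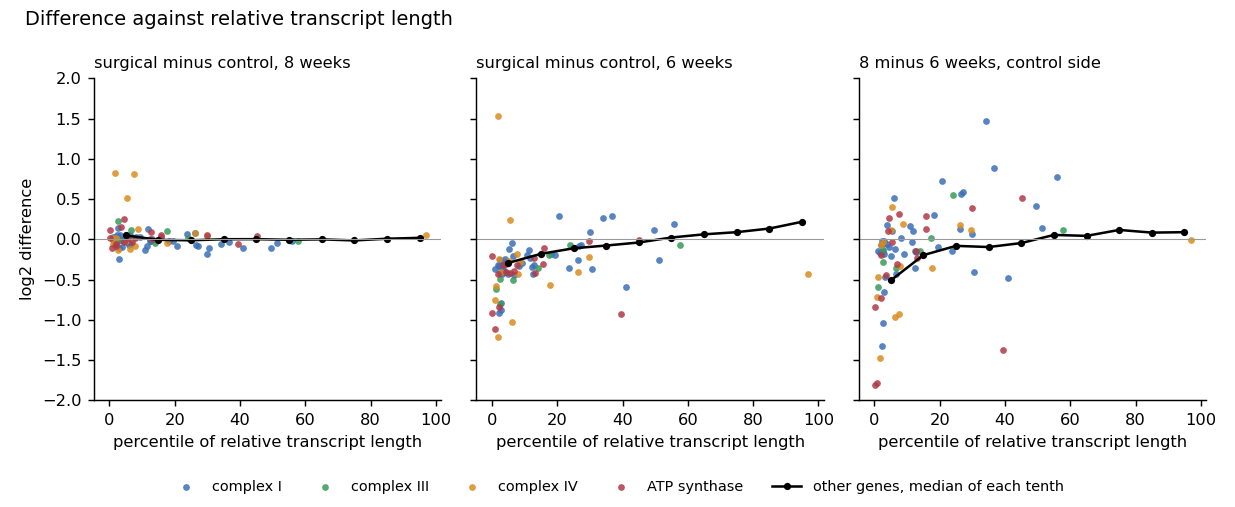
Log2 difference (edgeR fit) of each gene against the percentile of its relative transcript length (count divided by TPM) among 15910 genes, for 2 comparisons of sides and the control side over time; colours mark complexes and the black line joins the medians of all other genes in length classes of 10% each. At 6 weeks and on the control side the line is lowest in the shortest class (-0.29 and -0.51), and at 8 weeks it is flat.

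When a smooth trend with length was removed in each library, the median at 6 weeks was -0.039, with 52 of 86 genes lower. Of the 86, 7 had an unadjusted p under 0.05, all lower (background 0.769%). At 8 weeks the median was -0.038, with 57 of 86 lower and 0 under an unadjusted p of 0.05. The median over both times was then -0.044 with 61 of 86 lower. That of the difference between times was 0.040, where that of all genes was 0.030. Cox7b remained at -0.83 (SE 0.20), Ndufa4 at -0.73 and Atp5mg at -0.87 at 6 weeks. On the control side over time the removal turned the median to 0.30, with 65 of 84 genes higher at 8 weeks and 0 called. Atp5mg, which is not short, kept -1.32 (adjusted p 0.061), while Ndufa6 was at -0.65, Cox7b at -0.74, Atp5f1e at -0.92 and Atp5mk at -0.91.

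Other genes of the pathway, from lists written down with earlier results of these data known, did not move as one block. None of them passed over all genes in any comparison of sides. The 13 subunits encoded by the mitochondrial genome were all lower on the surgical side at 6 weeks, with a median of -0.11, and 12 of 13 were higher at 8 weeks (0.08). On log2(TPM + 1) 9 of 13 were higher at 6 weeks (0.10) and 12 of 13 lower at 8 weeks (-0.051). The medians of all genes on that scale were 0.16 and -0.094. Relative to these the 13 subunits were at -0.058 and 0.043, the same directions as on counts. Over time they were lower at 8 weeks for all 13 on both sides, with a median of -0.93 on the surgical and -1.09 on the control side, where all 13 had an unadjusted p under 0.05 and 0 were called. Mt-co1, the catalytic subunit of complex IV, was at -1.38 (SE 0.31, adjusted p 0.088) on the control side.

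For assembly factors outside the naming rule, 35 rows were tested (34 symbols, with Sdhaf1 on a pair of rows). On counts 30 of them were lower on the surgical side at 6 weeks, with a median of -0.23. On log2(TPM + 1) 16 of 35 were lower, with a median of 0.0070, where that of all genes was 0.16. Relative to all genes that is -0.15. Complex II and cytochrome c (5 genes) had a median of -0.11 on counts and 0.15 on log2(TPM + 1), or -0.012 relative to all genes. Citric acid cycle enzymes (14 genes) and glycolytic enzymes (16 genes) had medians of 0.06 on counts in that comparison. On log2(TPM + 1) all 14 and all 16 were higher, with medians of 0.30 and 0.27, or 0.13 and 0.11 relative to all genes. On the control side over time they were higher at 8 weeks in 12 of 14 and 15 of 16 cases, with medians of 0.44 and 0.65, and none was called. Of 15 regulators of mitochondrial gene expression, only Slirp, which binds mitochondrial mRNA, passed a test. It fell on the control side at 8 weeks relative to 6 weeks (-1.10, SE 0.12, adjusted p 0.0344 by edgeR). Slirp is short, at percentile 2.46 of relative transcript length, where the median of the 15 was 53.5. Lrpprc, the protein it binds, was at 0.94 (SE 0.25, adjusted p 0.097) in the same comparison, and at 6 weeks Slirp was at -1.07 (SE 0.15, adjusted p 0.999) between the sides.

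Several subunits exist in forms that are typical of certain tissues, and these followed muscle RNA only in part. Cox6a2 had 0.45, 550, 4.15 and 2.65 TPM in the surgical libraries of rats D, C, G and H, and 2.10, 1.02, 0.41 and 133 TPM in their control libraries. At 6 weeks it had 5.08, 4.85 and 22.2 TPM in the surgical and 1.74, 4.40 and 1.55 TPM in the control libraries of rats A, B and E. The highest 3 libraries were those with the highest muscle markers (36786, 7169 and 1532 TPM), and no muscle marker measured was at 0 in any library. Relative to Cox6a1, its widespread counterpart, Cox6a2 stood at 49.5% in rat C's surgical library and at most 0.852% outside those 3 libraries.

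Cox7a1, the form of its subunit that is typical of muscle, did not share this pattern. It had 13.0, 6.50, 11.3 and 12.0 TPM in the surgical and 10.4, 7.83, 12.7 and 13.0 TPM in the control libraries at 8 weeks. At 6 weeks it had 4.66, 5.10 and 7.15 TPM in the surgical and 5.33, 5.26 and 8.91 TPM in the control libraries. Its share of Cox7a2 was 2.18% to 3.79% in the 3 libraries with muscle RNA and 1.69% to 3.95% in the others. Cox4i2, a form of Cox4 known from lung, ranged from 1.29 to 8.32 TPM, with the highest value in the surgical library of rat C.

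**Figure D5:**
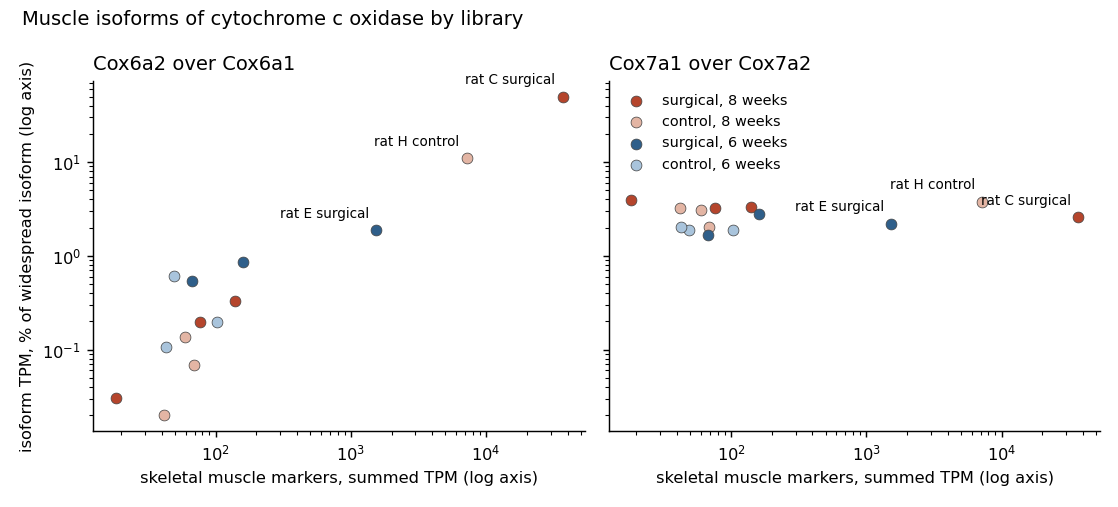
TPM of the muscle forms Cox6a2 and Cox7a1 as a percentage of their widespread counterparts (log axis) against the summed TPM of skeletal muscle markers (log axis); points are libraries. Cox6a2 is highest in the 3 libraries with the most muscle RNA, at 49.5% in the surgical library of rat C, while Cox7a1 stays between 1.69% and 3.95%.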

How the data were processed

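Bulk RNA was sequenced in 14 libraries, a surgical and a control library of each of 7 rats. Per the labels the molecule was polyA RNA, while their extraction protocol named ribosomal depletion. Per the submitters' processing notes, FastQC, Trim Galore, Salmon and DESeq2 were used; versions and genome build are not given in the sources used here. Gene tables of estimated counts and of TPM came from the authors, and the deposited estimated counts were whole numbers. Groups came from the titles; rats C and D were exchanged between titles and library names, which did not split any pair; letters here follow the titles. The surgical title of rat C said replicate 1 and was read as 2. Both sides came from the same animal, which was therefore the block.

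Estimated counts were tested with edgeR 4.0.16 (R 4.3.3): filterByExpr at a minimum count of 10, TMM, robust quasi-likelihood fits, two-sided p-values with Benjamini-Hochberg adjustment over all genes tested, called under 0.05. Sides were compared over all 14 libraries with rat as block; times within a side, 7 libraries each, had no block. The gene table script was tested on simulated data. Of the 90 genes, 86, 84 and 85 passed the filter for the sides, the control side and the surgical side over time; Cox7b2, Cox8c, Ndufb4l1 and one Ndufb2 row (ENSRNOG00000026616) passed in none. Genes could pass on the strength of one group, as Cox6a2 did. Log2 CPM per library had a prior count of 2. Relative length was count divided by TPM, for genes with 20 counts in 3 libraries.

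Alternatives were DESeq2 1.42.0, its size factors, no filter, 1 CPM in 7 libraries (4 within a side), limma 3.58.1 on log2(TPM + 1) or log2(TPM + 0.1) for genes with a mean of 0.5 TPM, removal of a lowess trend with length (span 0.3), 15 neuron markers as a covariate, omission of rats, and no block. Named genes were the 5 of smallest p in each comparison, the 3 shortest and longest, the highest of each complex, isoform pairs, core and catalytic subunits, Atp5if1, Cox7b, Cox7a2l, and the most and least variable. Genes, lists and rule were chosen with earlier results of these data known. Near-copies such as Ndufs6 and Ndufs6l1, and overlapping or antisense genes, may share reads, so their split is uncertain. Values of 1 gene of the rule are not reported here.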

Additional observations from a re-analysis of the deposited data

Results flagged for a closer look

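In the groups of 4, the highest or lowest library of each named gene was compared with the spread of the other 3, and 3 of 78 such checks stood out, where chance alone gives about 1 in 20. Cox6a2 was at 550 TPM in the surgical library of rat C, with the other 8-week surgical libraries at 0.45 to 4.15 TPM. Cox6a2 was also at 133 TPM in the control library of rat H, with the other 8-week control libraries at 0.41 to 2.10 TPM. Ndufa4l2, a relative of Ndufa4 known from tissue short of oxygen, was at 11.9 TPM in the surgical library of rat C and at 1.95 to 2.92 TPM in the other 8-week surgical libraries. Those libraries of rats C and H held 36786 and 7169 TPM of summed skeletal muscle markers, with none of the 14 measured at 0; their part in the Ndufa4l2 value was not tested.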

How the results depend on the processing

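The lower level on the surgical side at 6 weeks kept its direction under all settings run, and leaving out each rat in turn gave medians of -0.38 to -0.26. On TPM the median of all genes shifted (0.16 at 6 weeks, -0.094 at 8 weeks, -0.24 for the difference between times, 0.45 and 0.21 over time in control and surgical ganglia, with 1 added), so values there are best read against it. With limma on log2(TPM + 1) the medians were -0.10 at 6 weeks, -0.14 at 8 weeks, -0.012 for the difference between times, and over time 0.51 in control and 0.47 in surgical ganglia. With 0.1 added they were -0.10, -0.14, -0.019, 0.52 and 0.48 in the same order. Relative to all genes, the 6-week median with 1 added was -0.26. With the length trend removed the medians were -0.039 at 6 weeks, -0.038 at 8 weeks, 0.040 for the difference between times and 0.30 on the control side. The trend with length is shared by genes outside the list; its cause was not tested.

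DESeq2 called 12 genes at 6 weeks, 2 for the difference between times and 21 on the control side over time. There limma on TPM with either constant, and the removal of the length trend, called 0, and leaving out rats C, E and H called 18 of 85 with a median of 0.069. Leaving out each rat in turn called 0 to 26 genes on the control side, with medians of -0.14 to 0.049; the cause was not tested. The neuron covariate moved that median to -0.20 with 5 genes called. The shares of all genes called under these alternatives are not given here. Ndufaf4, an assembly factor, was at -0.19 between sides at 8 weeks, at 0.033 without rats C, E and H and at 0.0033 without rat C. Without the replicate block the 6-week median was -0.32 with 0 genes called, and no call changed in any comparison of sides.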

Other observations

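Ndufa10l1, a gene named after the complex I subunit Ndufa10, was the most variable of the tested genes over the 14 libraries (SD of log2 CPM 2.94) and followed the rat rather than the side. It had 0.7, 0.3, 32.1 and 17.8 TPM in the surgical libraries of rats D, C, G and H and 0.8, 0.6, 40.2 and 12.9 TPM in their control libraries. At 6 weeks it had 0.1, 0.3 and 10.9 TPM in the surgical and 0.1, 0.1 and 11.8 TPM in the control libraries of rats A, B and E. Both libraries of rats G, H and E were thus above 10 TPM and both libraries of the other 4 rats under 1 TPM. Ndufs4, an accessory subunit of complex I, was the least variable, with an SD of 0.11 and a mean of 87.2 TPM. Ndufs6, also of complex I, had a mean of 7.36 counts, and the row Ndufs6l1 had 1669 counts.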
